A study of Homo sapiens with 4 samples.

Results

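The genes described here are 10 genes known as markers of early lymphocyte activation, namely FOS, JUN, JUNB, JUND, EGR1, MYC, NR4A1, IER2, DUSP2 and CD69. They were taken by name, with earlier results of these data known. The peaks assigned to them were collected from a list of 18993 peaks in 8478 genes. That list gives where RNA was recovered with PRMT5, an arginine methyltransferase that works in complex with WDR77. Of the 10 genes, 8 had peaks, 15 in all, and no peak was assigned to FOS or JUN. The list came from the leukemic human T cell line Jurkat, cells of an established line grown in RPMI1640 medium with serum, treated with PHA (a lectin that activates T cells) for 48 hours and crosslinked with UV light, given in the labels as 264 nm and 400 mJ, where the study's methods give another wavelength for RIP. All 4 libraries shared this treatment, and 2 of them were PRMT5 RIP libraries, made from RNA recovered by FLAG immunoprecipitation, and 2 were input libraries of the same kind of lysate. Elsewhere in the study, FLAG RIP was made in Jurkat cells that expressed introduced constructs. The PRMT5 recovered here may thus be a tagged form and not the cells' own, which was not tested. Unstimulated cells and an immunoprecipitation without PRMT5 were not analysed here, so the values say nothing of induction by PHA or of RNA carried over on beads. The list gives each peak 1 RPM value, reads scaled to library size, pooled over the PRMT5 RIP libraries and 1 pooled over the input libraries, so that no spread between replicates and no test across them can be given for any value. The read depth of each library was not stated, and RPM was rounded to 0.01. Values come from RNA of many cells together, so fewer expressing cells and less RNA per cell cannot be told apart.

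Immediate early genes are transcribed within minutes after a stimulus, because the factors that switch them on are already present in the cell. FOS and JUN proteins pair through leucine zippers into the AP-1 factor, EGR1 and NR4A1 are further transcription factors of the first wave, and MYC drives growth and metabolism of dividing T cells. IER2 is a small nuclear response protein, DUSP2 is a phosphatase that switches off MAP kinases, and CD69 is a surface receptor that retains activated lymphocytes in tissue. Many of these mRNAs are short-lived, and several carry AU-rich elements in their 3′ UTRs. The study asked which RNAs PRMT5 is recovered with in T cells, with PDCD1 as its main target, and the present comparison asks the same of activation genes.

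In 3 members a peak began at or close to the start of the gene. The first peaks of JUNB and EGR1 began at the first base of the RefSeq gene, and the peak of DUSP2 began 10 nt after it. The first 30 bases under each of these peaks are shown 5′ to 3′ from RefSeq (GRCh38.p14), because these peaks reached, or nearly reached, the annotated start of the transcript. They lie at chr19:12791486-12791515 on the plus strand for JUNB, at chr5:138465479-138465508 on the plus strand for EGR1 and at chr2:96145401-96145430 on the minus strand for DUSP2. The share of G and C in them was 73.3% in JUNB, 63.3% in EGR1 and 80% in DUSP2. That share was not computed for the starts of other genes, so it cannot be called particular to these members.
JUNB: gggaccttgagagcggccaggccagcctcg
EGR1: gagagatcccagcgcgcagaacttggggag
DUSP2: gctcgggcagcgccaccgccacgagagccc

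The DNA before the gene starts was read for 8 of the 10 genes, in 9 windows of 250 bases. NR4A1 had 2 windows, and the second, chr12:52037465-52037714, lay inside the RefSeq span of the gene. In capitals are matches on either strand to the cyclic AMP response element TGACGTCA, the AP-1 site TGANTCA, the TATA box TATAAA, the GC box GGGCGG, the E-box CACGTG and the CArG box, the site of serum response factor. EGR1, JUND and JUNB are shown as the members with a CArG box, with a cyclic AMP response element and with a TATA box. Their windows lie at chr5:138465229-138465478, plus strand, at chr19:18281623-18281872, minus strand, and at chr19:12791236-12791485, plus strand.
EGR1: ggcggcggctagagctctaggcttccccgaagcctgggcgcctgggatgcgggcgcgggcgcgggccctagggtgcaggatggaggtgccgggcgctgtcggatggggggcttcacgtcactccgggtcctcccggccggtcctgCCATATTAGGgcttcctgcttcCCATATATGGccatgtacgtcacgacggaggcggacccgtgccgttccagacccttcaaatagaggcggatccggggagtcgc
JUND: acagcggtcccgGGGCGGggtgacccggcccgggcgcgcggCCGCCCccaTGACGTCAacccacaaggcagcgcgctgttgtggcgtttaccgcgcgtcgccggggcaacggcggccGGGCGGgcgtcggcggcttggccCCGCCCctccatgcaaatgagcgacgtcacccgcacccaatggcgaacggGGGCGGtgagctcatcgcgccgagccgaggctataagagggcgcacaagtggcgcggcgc
JUNB: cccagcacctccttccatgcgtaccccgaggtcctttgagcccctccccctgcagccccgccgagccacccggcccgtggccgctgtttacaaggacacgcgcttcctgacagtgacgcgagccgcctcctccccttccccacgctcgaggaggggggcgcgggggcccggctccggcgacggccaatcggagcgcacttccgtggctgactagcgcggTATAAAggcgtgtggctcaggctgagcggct

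The EGR1 window held 2 CArG boxes, starting 105 and 83 bases before the gene, and no other member window held one, against 1.16% of all 35116 windows of that length. The cyclic AMP response element stood only in JUND among the members, 200 bases before the gene, against 1.65% of all windows. A TATA box was found in JUNB, 31 bases before the gene, and in FOS, 33 bases before it, against 10.7% of all windows. The GC box was found in 6 of the 8 genes, namely FOS, JUN, JUND, NR4A1, IER2 and DUSP2, against 42.6% of all windows. In NR4A1 it stood only in the window inside the gene. The E-box was found in DUSP2 only (6.34% of all windows), and TGANTCA in none of the 8 genes (6.57% of all windows). These are matches of letters, and no binding at them was measured here. DNA outside the windows was not searched, so a gene without a match here may hold one further away.

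RPM was higher in PRMT5 RIP than in input at 14 of the 15 peaks and equal at the remaining one, the narrow second peak of JUNB. None was lower, where 3.84% of all peaks of the list were. After 0.01 was added to both RPM values, their log2 ratio ran from 0.00 to 2.14 over the 15 peaks with a median of 1.25, beside a median of 1.10 over all peaks. At 11 of the 15 peaks, or 73.3%, PRMT5 RIP was at least 2 times input, and 55.7% of all peaks of the list were past that fold. That share depended on the input level, and the median input was 3.46 RPM at the 15 peaks against 0.83 RPM over the list. With at least 1 RPM in input, 7 of 10 member peaks were past the fold, beside 39.8% of all such peaks. Below 1 RPM, 4 of 5 were, beside 69.7%. With RPM summed over the peaks of each gene, 6 of the 8 genes were past 2 times input, and MYC and JUNB were not, where 62.3% of all genes of the list were. Because the list holds only called peaks, being above input was the common case in it, and 9 of the 15 peaks lay above its median. In the plot of RPM by peak, genes with a fold near that of DUSP2, the member with the most RPM, were also found at low levels, as in CD69.

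**Figure D1:**
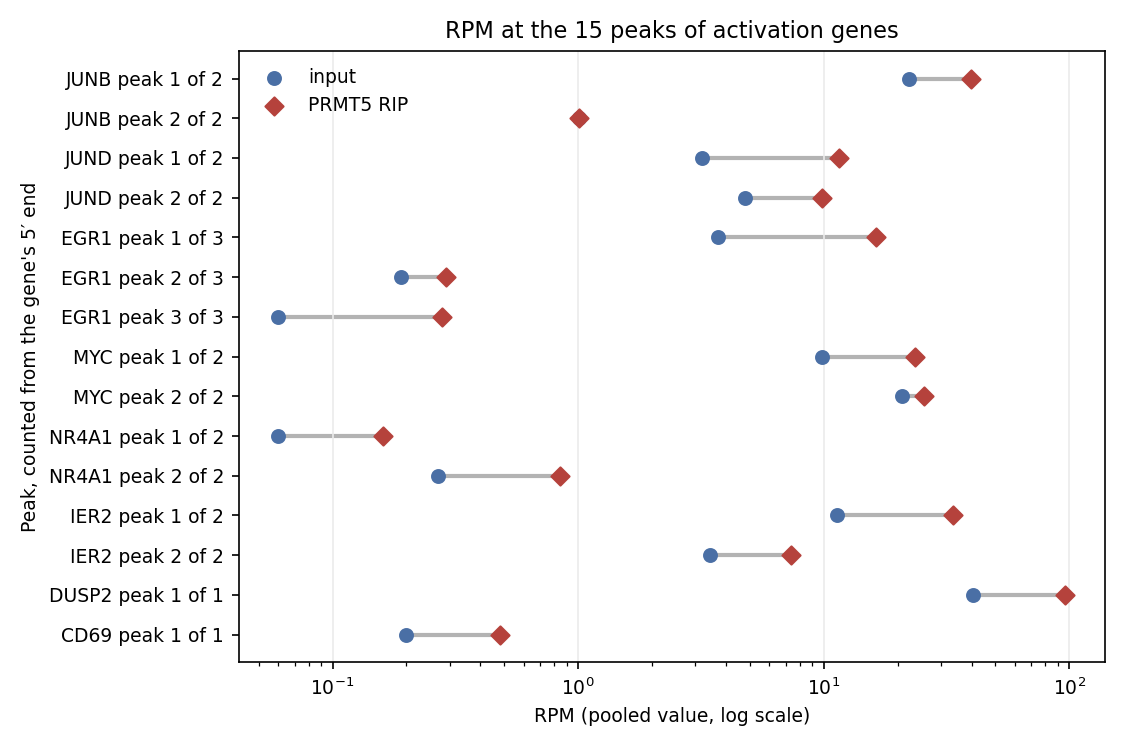
Pooled RPM in PRMT5 RIP (diamonds) and input (circles) at each of the 15 peaks, on a log axis, with peaks counted from the 5′ end of the gene. DUSP2 had the highest values, 96.5 and 40.4 RPM, and at the second JUNB peak both symbols coincide at 1.01 RPM.

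Among the AP-1 genes, JUNB and JUND had peaks and FOS and JUN had none. No peak of any identifier on either strand touched the FOS or JUN gene or the 1000 nt on each side of them. A gene without a listed peak is not a gene without RNA, since input values were given only under peaks. JUNB, an AP-1 subunit expressed in activated T cells, lies on the plus strand of chromosome 19 and had 2 peaks (identifier ENSG00000171223.6). The first, from 12791486 to 12792810, was 1325 nt wide and had 39.7 RPM with PRMT5 against 22.3 RPM in input. Its fold of 1.78 was below 2, and its input level was higher than that of 91.9% of all peaks. The second, from 12792836 to 12792860, was 25 nt wide and had 1.01 RPM in each. The gene HOOK2 runs over part of JUNB on the other strand, and no peak on that strand overlapped the JUNB peaks.

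JUND, an AP-1 subunit that many resting cells also express, lies on the minus strand of chromosome 19 and had 2 peaks (ENSG00000130522.6). The peak nearer to the 5′ end, from 18281069 to 18281518, had 11.5 RPM with PRMT5 against 3.19 RPM in input. Its log2 ratio of 1.85 was above that of 81.1% of all peaks. The other, from 18280294 to 18280918, had 9.87 RPM and 4.78 RPM and a log2 ratio of 1.04. These peaks were 450 nt and 625 nt wide, so their totals are not alike in length. Per kb of peak, PRMT5 RIP had 25.6 RPM at the first and 15.8 RPM at the other. Input had 7.09 RPM and 7.65 RPM per kb. Summed over each gene, the fold was 2.68 for JUND and 1.75 for JUNB, a difference whose error is not known because each value is pooled.

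EGR1, a zinc finger factor induced through MAP kinases and serum response factor, had the largest fold of the 8 genes. Its 3 peaks lay on the plus strand of chromosome 5 (ENSG00000120738.8). The first, from 138465479 to 138466841, was 1363 nt wide and held nearly all of the signal, with 16.3 RPM with PRMT5 against 3.70 RPM in input. Its log2 ratio of 2.14 was above that of 87.9% of all peaks. The second peak, 25 nt wide, began 25 nt after the first one ended, from 138466867 to 138466891, with 0.29 RPM and 0.19 RPM. Peak 3, 50 nt wide, from 138467417 to 138467466, had 0.28 RPM with PRMT5 against 0.06 RPM in input. Its log2 ratio of 2.05 is uncertain by the rounding of RPM alone between 1.93 and 2.18. Summed over the gene, EGR1 had 16.9 RPM against 3.95 RPM, a fold of 4.26 that was above that of 87.0% of all genes.

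NR4A1, an orphan nuclear receptor often used as a reporter of T cell receptor signals, had the lowest RPM per length of the members. Its peaks on the plus strand of chromosome 12 (ENSG00000123358.20) lay 25 nt apart. The first, from 52052632 to 52054337, had 0.16 RPM with PRMT5 against 0.06 RPM in input over 1706 nt. The second, from 52054363 to 52054487, had 0.84 RPM and 0.27 RPM over 125 nt. Their log2 ratios of 1.28 and 1.60 were each above the median of all peaks, with rounding alone giving 1.14 to 1.43 for the first and 1.57 to 1.64 for the second. The summed log2 ratio of NR4A1 was 1.57, and it was 0.59 with a pseudocount of 1 RPM in place of 0.01, below 2 times input. With that pseudocount the median of all peaks was itself 0.46, and 18.5% of all peaks were past 2 times input.

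MYC had the lowest summed fold of the 8 genes and a high level in both kinds of library. On the plus strand of chromosome 8 (ENSG00000136997.21), the peak from 127736084 to 127736483 had 23.5 RPM with PRMT5 against 9.81 RPM in input. The peak from 127738342 to 127738916 had 25.7 RPM and 20.9 RPM, a log2 ratio of 0.30 that was above only 11.4% of all peaks. The MYC peaks were 400 nt and 575 nt wide. Per kb of peak, PRMT5 RIP had 58.7 RPM at the first and 44.7 RPM at the second, while input had 24.5 RPM and 36.3 RPM. Over the gene the sums were 49.2 RPM and 30.7 RPM, a fold of 1.60.

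IER2, on the plus strand of chromosome 19 (ENSG00000160888.7), had its stronger peak from 13153058 to 13154107, with 33.7 RPM with PRMT5 against 11.3 RPM in input. The peak from 13154308 to 13154707 had 7.35 RPM and 3.46 RPM. Both were past 2 times input, with log2 ratios of 1.57 and 1.08, the latter just below the median of all peaks. DUSP2 had 1 peak on the minus strand of chromosome 2 (ENSG00000158050.5), from 96143294 to 96145430, which spanned 94.1% of the gene. It had the highest RPM of the 15 peaks, 96.5 in PRMT5 RIP and 40.4 in input, and a fold of 2.39. Its input value was above that of 94.9% of all peaks.

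CD69, the only surface receptor among the members, had 1 peak of 50 nt on the minus strand of chromosome 12 (ENSG00000110848.8), from 9755181 to 9755230. It had 0.48 RPM with PRMT5 against 0.20 RPM in input, a fold of 2.33. The fold of CD69 was thus near that of DUSP2, although the levels of these peaks were far apart. With a pseudocount of 1 RPM in place of 0.01 the log2 ratio of CD69 was 0.30, against 1.23 for DUSP2, so at levels as low as that of CD69 the value depends on the pseudocount. The median of all peaks was 0.46 under that setting.

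Per length, the order of the genes can be described without a test. Input RPM per kb of peak was 31.4 for MYC, 18.9 for DUSP2, 17.2 for JUNB, 10.2 for IER2, 7.41 for JUND, 4.0 for CD69, 2.75 for EGR1 and 0.18 for NR4A1. In PRMT5 RIP the RPM per kb of peak was 50.4 for MYC, 45.1 for DUSP2, 30.1 for JUNB, 28.3 for IER2, 19.9 for JUND, 11.7 for EGR1, 9.60 for CD69 and 0.55 for NR4A1. The order was the same in both except that EGR1 and CD69 changed places. Whether neighbours in this order differ beyond the spread between libraries cannot be told from pooled values. Peak width may include introns, and narrow peaks such as that of CD69 give uncertain values per length.

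The peaks did not cover the genes evenly. Peaks spanned 73.8% of JUNB, 55.7% of JUND, 37.6% of EGR1 and 32.2% of IER2, but 13.0% of MYC, 4.99% of NR4A1 and 0.594% of CD69, where the RefSeq gene includes introns and alternative starts. In JUND the first peak began 104 nt after the 5′ end of the gene, in MYC 650 nt, in IER2 2647 nt, in CD69 5671 nt and in NR4A1 29800 nt. All 15 peaks were given as uninterrupted blocks, with widths from 25 nt to 2137 nt and a median of 450 nt, against a median of 275 nt over the list. In JUNB, EGR1, NR4A1, IER2 and JUND neighbouring peaks lay 25 nt to 525 nt apart, while those of MYC lay 1858 nt apart.

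**Figure D2:**
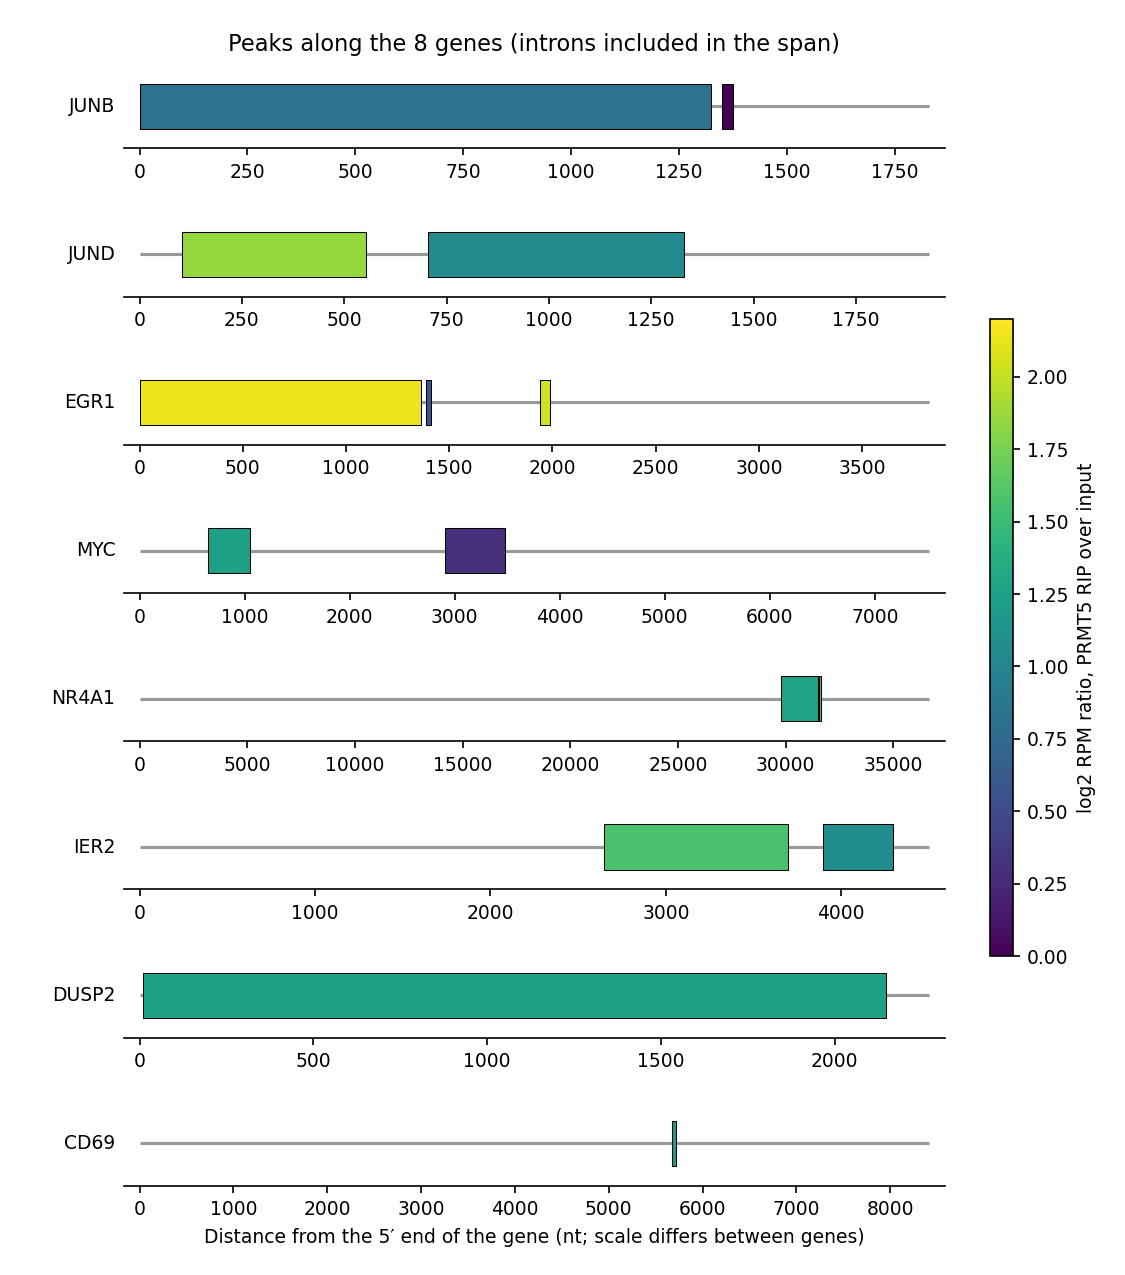
Position of each peak (boxes) along the RefSeq span of the 8 genes (grey lines) as distance in nt from the 5′ end, with the colour giving the log2 RPM ratio of PRMT5 RIP over input. The peaks of JUNB and EGR1 start at 0 nt, and in MYC the peak at 650 nt has a ratio of 1.26 against 0.30 for the peak at 2908 nt.

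JUNB, JUND, EGR1, MYC and IER2, 5 of the 6 genes with more than 1 peak, had a higher log2 ratio at their 5′-most peak than at their 3′-most one, and 69.7% of all such genes of the list had this order. The difference between the 5′-most and the 3′-most peak was 0.96 in MYC, 0.83 in JUNB, 0.80 in JUND and 0.49 in IER2. In EGR1 it was 0.08, which lies inside the rounding of its peak 3, and in NR4A1 the 5′ peak was lower, with a difference of -0.32. By the log2 fold change of the authors' peak caller EGR1 also had the higher value at its 3′ end, which left 4 of 6 genes. The 3′-most peak of JUNB was only 25 nt wide, with 1.01 RPM in each kind of library. With peaks of at least 50 nt JUNB dropped out, and 4 genes had this order. A count of 5 in 6 lies near the share in the list.

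Peaks on the opposite strand overlapped 3 of the 15 peaks, those of MYC and the stronger one of IER2. At IER2 a minus-strand peak of another identifier, ENSG00000267598.1, shared 1012 nt with it and had 20.4 RPM with PRMT5 against 5.69 RPM in input. At MYC a minus-strand peak of ENSG00000249375.8, 4976 nt wide, spanned both peaks with 12.2 RPM and 9.40 RPM. The library kit marks strand, but how strand was used in counting was not given in the sources used here, so the part of these reads in the MYC and IER2 values was not tested. Without the 3 peaks, 9 of 12 were at least 2 times input. The share of all peaks past that fold was not computed without overlapping peaks, so this count has no background beside it.

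The authors' peak caller gave each of the 15 peaks an FDR between 3.88e-13 and 1.4e-09, and 96.9% of all peaks of the list had an FDR at or below 0.01. Its own log2 fold change was above the log2 RPM ratio at every one of the 15 peaks, by 0.63 at the first EGR1 peak to 1.07 at the first JUNB peak. For 8 of them the excess was within 0.1 of the median of 0.79 over the list. By that measure JUND, with 2.84 at its first peak, and EGR1, with 2.76 at its first peak and 2.88 at peak 3, again had the largest values of the members. The second JUNB peak, with equal RPM in both kinds of library, was given a log2 fold change of 0.72. The scaling behind the caller's values was not given in the sources used here.

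**Figure D3:**
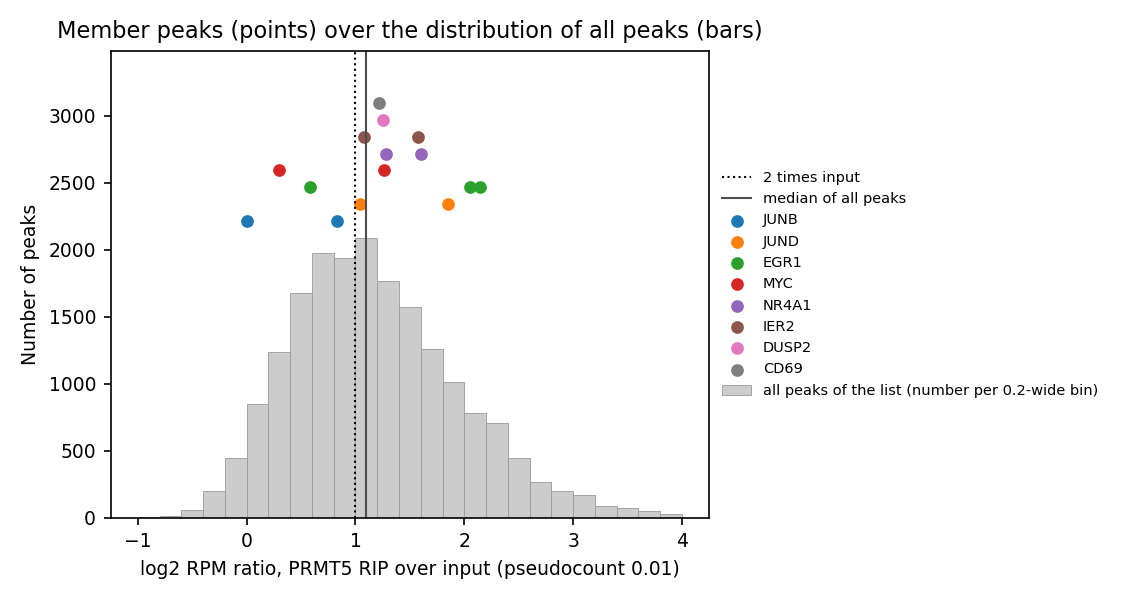
Number of peaks of the whole list in bins of the log2 RPM ratio (grey bars), with the 15 peaks of the activation genes as points, 1 row per gene, the dotted line at 2 times input and the solid line at the median of 1.10. The height of a point has no meaning, and 63 peaks of the list lie outside the axis. The EGR1 and JUND peaks reach furthest to the right, and those of JUNB, MYC and EGR1 hold the 4 points left of the dotted line.

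Other genes of early activation were described from 4 lists, by the log2 ratio of RPM summed over the peaks of a gene. All counts of genes past 2 times input are to be read beside the 62.3% of all genes. Counts of genes with a peak have no such share beside them, since the list holds only genes with peaks. Genes were matched by symbol, and 6989 of 8478 identifiers received one. A gene counted as without a peak may thus have an unnamed one, and may still have RNA. Counts and medians cover every gene with a peak, while the genes named as highest or lowest in a list were ranked among those with at least 1 RPM in input. Of 31 further AP-1 partners and early transcription factors, 15 had a peak and 13 of these were at least 2 times input, with a median log2 ratio of 1.70 beside 1.20 over all genes. Those with the highest ratios at that input level were CREM, with 5.35 RPM with PRMT5 against 1.14 RPM in input, MAFK, with 5.37 and 1.15 RPM, and ELK1, with 3.98 and 1.22 RPM. CREM binds cyclic AMP response elements, MAFK is a small Maf protein, and ELK1 is a partner of serum response factor. KLF2, a factor of T cell quiescence, with a log2 ratio of 1.09, and ATF4, a factor of the stress response, with 0.56, were lowest at that input level.

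Of 34 genes of the IER, DUSP and other feedback groups, 16 had a peak and 15 were at least 2 times input, with a median log2 ratio of 1.64. MCL1, which protects from apoptosis, had 18.4 RPM with PRMT5 against 3.95 RPM in input. NFKBIA, the inhibitor of NF-κB, had 5.41 and 1.59 RPM, and ZFP36, which binds AU-rich elements and speeds mRNA decay, had 12.4 and 3.92 RPM. The kinase PIM3, with a log2 ratio of 1.09, and IER3, with 0.63, were lowest at that input level, and IER3 was the 1 gene of this list with a peak that was not past the fold. In input, IER3 had 47.9 RPM and PIM3 19.7 RPM.

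Of 30 activation receptors and cytokines 7 had a peak, and 3 of these were at least 2 times input, with a median log2 ratio of 0.99. CD38, an ectoenzyme, had 4.18 RPM with PRMT5 against 1.53 RPM in input. CD83 had a fold of 2.01 and the chemokine receptor CXCR4 1.99, on either side of the limit. The amino acid transporter subunit SLC3A2, with a log2 ratio of 0.59, and the lipid receptor S1PR1, with 0.53, were lowest among genes with at least 1 RPM in input. CD69, with 1.22, was above the median of this list.

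Of 17 partners, antagonists and regulators of MYC, 11 had a peak and 7 were at least 2 times input, with a median log2 ratio of 1.48. The ubiquitin ligase subunit FBXW7, which marks MYC for degradation, had 32.4 RPM with PRMT5 against 9.89 RPM in input. ZBTB17, a MYC-binding zinc finger protein, had a log2 ratio of 1.48. MLX, with 0.64, and MXD3, with 119.0 RPM with PRMT5 against 118.2 RPM in input and a log2 ratio of 0.01, were lowest at that input level. MYC itself, with 0.68, lay among the low values of the list. No gene with a peak in any of the 4 lists had a summed RPM below input.

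**Figure D4:**
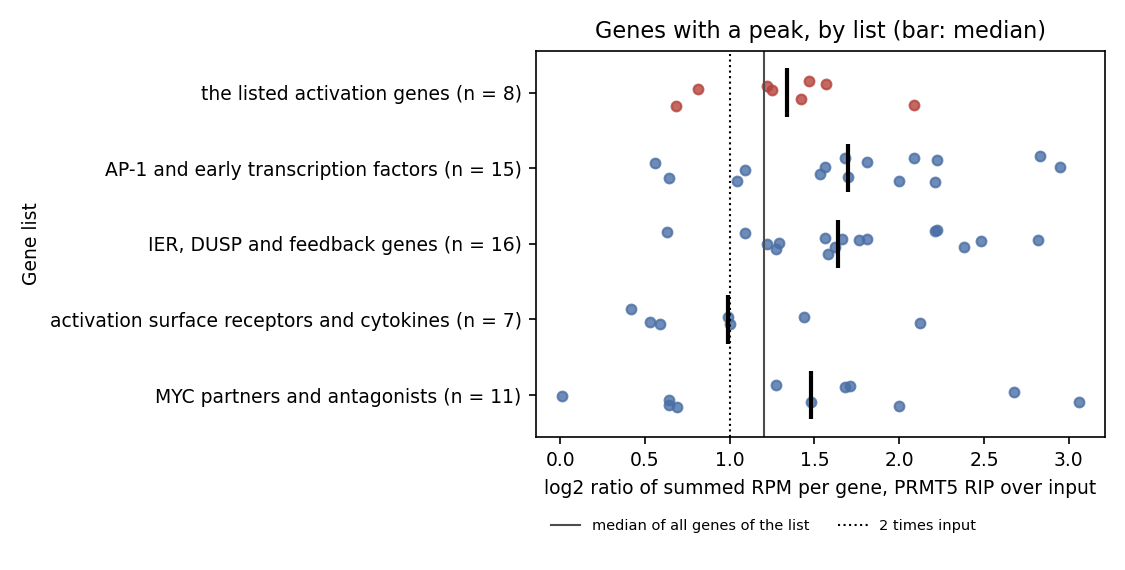
Log2 ratio of summed RPM in PRMT5 RIP over input for each gene with a peak, in the 8 activation genes (top row) and 4 lists of related genes (points, spread vertically at random within a row), with the median of each list as a bar. The medians are 1.34, 1.70, 1.64, 0.99 and 1.48 from top to bottom, and the solid line marks 1.20, the median of all genes.

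The labelled cell type was checked against markers. Of 14 T cell markers 11 had peaks, with CD3D, a chain of the T cell receptor complex, at 452.8 RPM with PRMT5 against 417.1 RPM in input, and no peak was named for TRAC, TRBC1 or TRBC2. Among 8 markers of other cells only CD79A, a B cell receptor chain, had peaks, with 69.9 RPM and 37.3 RPM summed, and its part in these values was not tested. Only 1 of the 11 T cell markers was at least 2 times input, and their median log2 ratio was 0.33.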

How the data were processed

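RNA from 2 PRMT5 RIP and 2 input libraries was sequenced. The authors deposited 1 peak list with RPM values rounded to 0.01, and the log2 fold change and the p-value and FDR of their peak caller. The submitters' processing notes name fastp, HISAT2 and hg38. The peak caller, its scaling and the pooling of replicates were not given in the sources used here. Rounded values do not give depth, so no interval was computed.

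Peak starts were raised by 1. Each peak was assigned to its first identifier, named by the study's table of targets (1999 rows used) or else by the RefSeq gene of GRCh38.p14 that all its peaks touched on the same strand, and 6989 of 8478 identifiers received a symbol. Of 756 named in both ways, 754 had the same name. RPM ratios used a pseudocount of 0.01, and 2 times input was the limit for counts. Ranges by rounding shift each RPM by 0.5 of that step at most. All members were named, with the 3 highest and 2 lowest genes of each list at 1 RPM or more in input, of which 1 is not reported here. Members and lists were chosen with earlier results of these data known. No test was made, since both replicates of a group were pooled. Motifs were searched in the 250 bases before RefSeq gene starts, and for NR4A1 also in a window inside the gene. Alternatives covered the identifier rule, FDR, input RPM, width, strand overlap, fold, pseudocount and measure. The counting of peaks past the fold was tested on simulated data. Python 3.11.15, pandas 2.3.3, numpy 2.4.6 and matplotlib 3.10.9 were used.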

Additional observations from a re-analysis of the deposited data

Results flagged for a closer look

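Peaks on the strand opposite to a member gene were not used in any comparison, and at 2 genes they had more RPM in PRMT5 RIP than in input. That was the common case, since only 3.84% of all peaks of the list were lower than input. The median log2 ratio over all peaks was 1.1. Over IER2 the minus-strand peak had 20.4 RPM in PRMT5 RIP against 5.69 RPM in input, a log2 ratio of 1.84 beside 1.57 for the IER2 peak it overlaps. Over MYC the minus-strand peak had 12.2 RPM against 9.40 RPM, a log2 ratio of 0.38 beside 1.26 and 0.30 for the MYC peaks. Overlap with a peak on the opposite strand was seen for 18.1% of all peaks of the list, and whether strand was used in counting was not given in the sources used here.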

How the results depend on the processing

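No paired analysis was possible because both replicates of a group were pooled into 1 value in the list, which also kept any replicate from being left out. The 15 peaks and 8 genes stayed within 1.5 times under all 6 alternatives, at 10 peaks and 6 genes or more, the fewest with at least 0.5 RPM in input. The 11 peaks at least 2 times input became 4 at 3 times input and 5 with a pseudocount of 1, settings under which 28.3% and 18.5% of all peaks were past the limit. The 6 genes at least 2 times input became 1, EGR1, at 3 times input. The share of all genes past that limit was not computed here, so this count has no background beside it. The 5 genes with the higher ratio at the 5′-most peak became 3 without peaks that overlap the opposite strand, when only 4 genes had at least 2 peaks left. The median log2 ratio of 1.25 was 1.07 and 0.81 with pseudocounts of 0.1 and 1, under which the median of all peaks was 0.89 and 0.46. By the caller's log2 fold change the median of the members was 2.12, where that of all peaks was 1.95. Over genes with summed RPM it was 1.34, beside 1.2 over all genes. The median over member peaks was 1.17 with at least 0.5 RPM in input and 1.24 without peaks that overlap the opposite strand. It was also 1.17 with at least 1 RPM in input, where the median of all peaks was 0.83. For the other setting no median of all peaks was computed. The ratio of each gene kept its sign in all 24 alternatives tried for single genes. This is no measure of stability, because a changed pseudocount cannot turn the sign and no member peak was lower than input. The alternatives for genes past the fold and for the 5′-most peak, and the strand overlap for peaks past the fold, were chosen after seeing the data. Low RPM limits EGR1 peaks 2 and 3, NR4A1 and CD69 most.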
